A study of Oryza sativa with 12 samples.

Results

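The response of rice seedlings to cold was compared between 2 cultivar backgrounds, ZH11 and Huayang. The change of each probe set from before cold to 6 h of cold was taken in each of 6 lines, and the 3 changes of the ZH11-background lines were set against the 3 of the Huayang-background lines. All 12 arrays of the series entered, 1 array for each line at each of 2 times.

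The series was made to find genes that depend on OsMYB30, a MYB transcription factor. The ZH11 lines were OE2 and OE28, independent plants that overexpress OsMYB30, and the control CK. The Huayang lines were mutant1 and mutant2, independent plants homozygous for an osmyb30 mutation, and the wild type WT. All plants were grown in potting soil to the 4-leaf stage. Shoots and leaves were taken before treatment (0 h) and after 6 h in a chamber at 4 °C, and total RNA was hybridised to GeneChip arrays. The promoter that drives the transgene and the nature of the mutation are not given in the sources used here. Because 2 of the 3 ZH11 lines overexpress OsMYB30 and 2 of the 3 Huayang lines are mutants, cultivar and OsMYB30 genotype cannot be told apart in the contrast of 6 lines. By the labels, CK against WT differs in cultivar without either genotype, but it is 1 line against 1. Cold and 6 h of elapsed time cannot be told apart either, and in whole shoots fewer cells of a type cannot be told from less RNA per cell. Whether each array holds 1 plant or a pool is not stated, so p-values measure the spread between these lines.

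Plants sense chilling through membrane and calcium signals, and calmodulin-like proteins, calcium pumps and protein kinases relay them. DREB1 (CBF) transcription factors are then induced and switch on many cold-regulated genes. Jasmonate, made from linolenic acid by lipoxygenases, allene oxide synthase and oxophytodienoate reductases, is one of the hormones of cold tolerance in rice, and its JAZ (TIFY) repressors are themselves induced when the hormone acts.

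The median intensity of an array, as deposited, was 34.7 to 37.2. The light harvesting genes LHCP and CAB2R read at least 16654.8 and 16247.2 on every array, while the meristem gene OSH1 read at most 10.1. PCNA, a gene of dividing cells, read 146.5 to 213.5. Of 8 root marker genes, 4 stayed at or below 73.9, the highest reading of the dim reporter probe sets, on all arrays. The same held for 23 of 42 genes of dividing cells, so the others were read above it. The summed intensity of the root list was 1640 to 1910 in ZH11 and 3110 to 3280 in Huayang before cold, and 1670 to 1830 and 2470 to 3650 at 6 h. Much of this sum was 1 gene, NAAT1, which averaged 742.4 in ZH11 and 1813 in Huayang before cold, and 451.2 and 1124.8 at 6 h. IRT1, another member, averaged 124.3 and 174 before cold. The part of the root list in the results was not tested. A reporter probe set was bright in the overexpression lines and the mutants (11860.8 to 12539.4 in OE2 and OE28, 13835.2 to 17781.9 in the mutants) and read at most 64.3 in CK. The arrays labelled WT read 2658.5 and 3821.8 for it, between CK and all other lines. A second reporter probe set read 7940.3 to 10805.7 in OE2 and OE28. It read at most 31.7 in CK, 113.5 in the mutants and 42.1 in WT. Whether the readings of the WT arrays for the first reporter go against their label was not tested, so results are also given without WT.

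Cold changed a large share of the probe sets in both cultivars. In the ZH11 lines 4695 probe sets rose (13.7%) and 6920 fell (20.2%) among the 34316 tested with limma at an adjusted p below 0.05. In the Huayang lines 4432 rose (12.9%) and 6168 fell (18%). Increases made up 40.4% of the ZH11 calls and 41.8% of the Huayang calls, but without normalization they were 28.5% and 31.1%, and after median centring 24.7% and 26.8%. Across probe sets, the changes of lines of one cultivar correlated at 0.87 to 0.90 within ZH11 and 0.84 to 0.88 within Huayang, and changes of lines of different cultivars at 0.80 to 0.84. These correlations describe 6 lines that share the array design and one normalization.

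The numbers of changed probe sets were compared in exact two-sided permutation tests, whose smallest possible p with 3 lines against 3 is 0.1, so that none could pass 0.05. Probe sets that changed at least 2-fold numbered 982, 1120 and 1098 in OE2, OE28 and CK and 1138, 1047 and 1279 in mutant1, mutant2 and WT. The means were 1067 ± 74.1 (SD, n = 3) and 1155 ± 117 (SD, n = 3), with an exact permutation p = 0.4, and the lines overlapped. At 4-fold the increases did not overlap, with 265, 264 and 266 probe sets in the ZH11 lines and 242, 208 and 223 in the Huayang lines (exact permutation p = 0.1). After median centring OE28 and mutant1 both stood at 236 (exact permutation p = 0.2), and without normalization the lowest ZH11 line had 239 and the highest Huayang line 237. Increases and decreases of 4-fold together numbered 275 to 294 against 245 to 274 (exact permutation p = 0.1), and with either other scaling the exact permutation p was 0.3. Decreases of 4-fold were fewer in every line, from 10 in OE2 to 51 in WT.

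**Figure D1:**
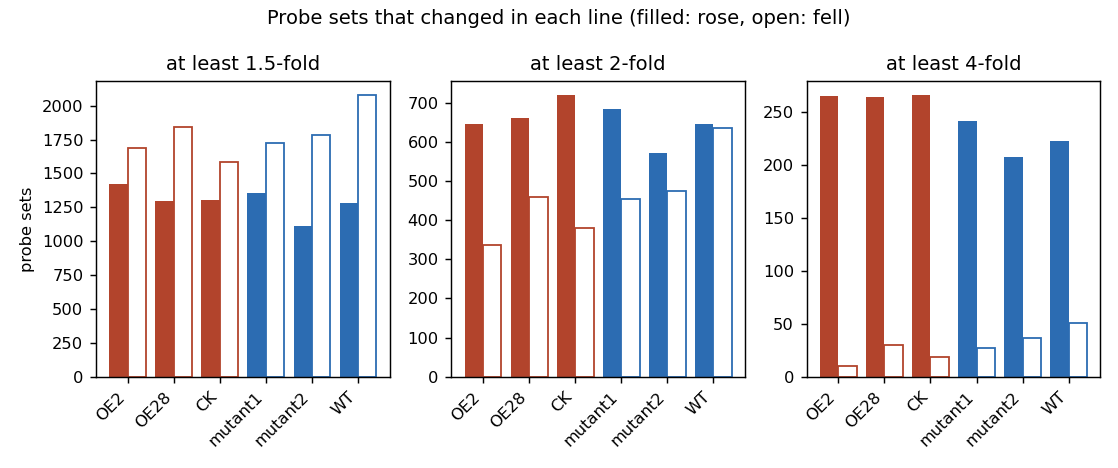
Number of probe sets (of 34316) that rose (filled bars) or fell (open bars) by at least 1.5-fold, 2-fold and 4-fold in each line, ZH11 lines in red and Huayang lines in blue. At 4-fold the 3 ZH11 lines stand at 264 to 266 increases and the Huayang lines at 208 to 242, a gap that closes after median centring, where OE28 and mutant1 both stand at 236.

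The cold response differed between the cultivars for 198 probe sets (0.577% of those tested) in limma with line as a block. For 144 (0.42%) the change was higher in ZH11 and for 54 (0.157%) it was lower. The median size of the difference was 0.84 on the log2 scale, the largest was 2.92, and 64 reached 2-fold. At an unadjusted p below 0.05 there were 3620. Without line as a block 35 were called, with line as a random block 153, and without WT 135. Line changes of the cultivars did not overlap for 15.6% of all probe sets, and for all 198, which the call itself nearly requires.

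The most frequent class among the higher calls was an increase in both cultivars that went further in ZH11. Of the 144, 70 rose in both, 24 rose in ZH11 and did not pass in Huayang, 24 fell in Huayang and did not pass in ZH11, 23 fell in both and 3 rose in ZH11 and fell in Huayang. Of the 54 lower calls, 23 fell in ZH11 and did not pass in Huayang, 9 fell in both, 9 rose in both, 7 rose in Huayang and did not pass in ZH11, and 6 fell in ZH11 and rose in Huayang. The cultivars differed for 5.26% of all probe sets before cold and for 10.6% at 6 h. Of the 198, 57 differed before cold and 162 at 6 h, and the gap was wider at 6 h than before it for 164 (82.8%, against 59.6% of all tested). The call is itself on the change of this gap, so these counts partly restate the selection.

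**Figure D2:**
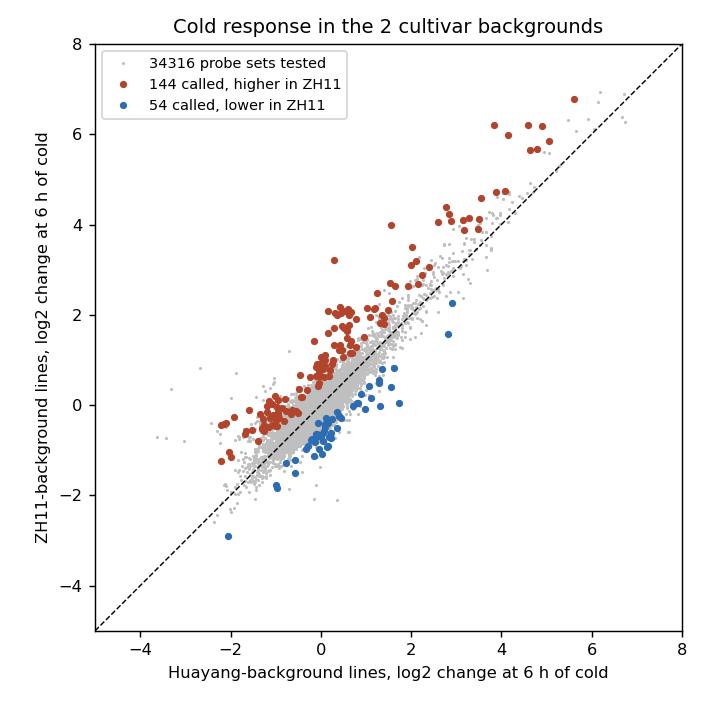
Mean log2 change at 6 h of cold in the 3 Huayang-background lines (horizontal axis) and the 3 ZH11-background lines (vertical axis), 1 point per probe set; the dashed line marks equal change. The 144 higher calls (red) lie above it, many at large increases, and the 54 lower calls (blue) lie below it.

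Jasmonate repressors were among the named genes whose increase was larger in ZH11. JAZ9 (LOC4331832) read 52.0, 87.4 and 43.2 in OE2, OE28 and CK before cold and 5222.6, 5352.3 and 5862.7 at 6 h. In mutant1, mutant2 and WT it read 140.0, 122.6 and 110.1 before cold and 3503.0, 2668.1 and 3541.5 at 6 h. The ZH11 lines started below and ended above every Huayang line. The increase was 23.9-fold in Huayang. In ZH11 it was larger, but its fold is not established, since OE2 and CK read under 73.9, the dim range, before cold. The log2 difference was 1.63 (SE 0.21, limma adjusted p = 0.016). Of 19 alternative settings the call was lost in 3, with readings under 73.9 set to 73.9 (the floor, 1.29, adjusted p = 0.165), with robust estimation (adjusted p = 0.074) and without OE2 (1.61, adjusted p = 0.0805). JAZ6 (LOC4333065) rose 3.82-fold and 2.64-fold, with line changes of 1.95, 1.87 and 1.98 in ZH11 against 1.52, 1.34 and 1.33. The difference was 0.53 (SE 0.07, adjusted p = 0.016). The JAZ6 call was lost in 8 of the 19 settings, among them line as a random block and the fits without OE2, OE28 or CK. JAZ13, a TIFY gene that did not pass, had line changes of 6.97, 6.40 and 7.42 against 6.12, 6.23 and 6.19 (difference 0.75, SE 0.20, adjusted p = 0.21), and it was chosen after its values were seen. Of 17 TIFY repressors tested, 2 were called higher and 0 lower, where 0.42% and 0.157% of all probe sets were, and the median difference was 0.13 against -0.01 over all probe sets.

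**Figure D3:**
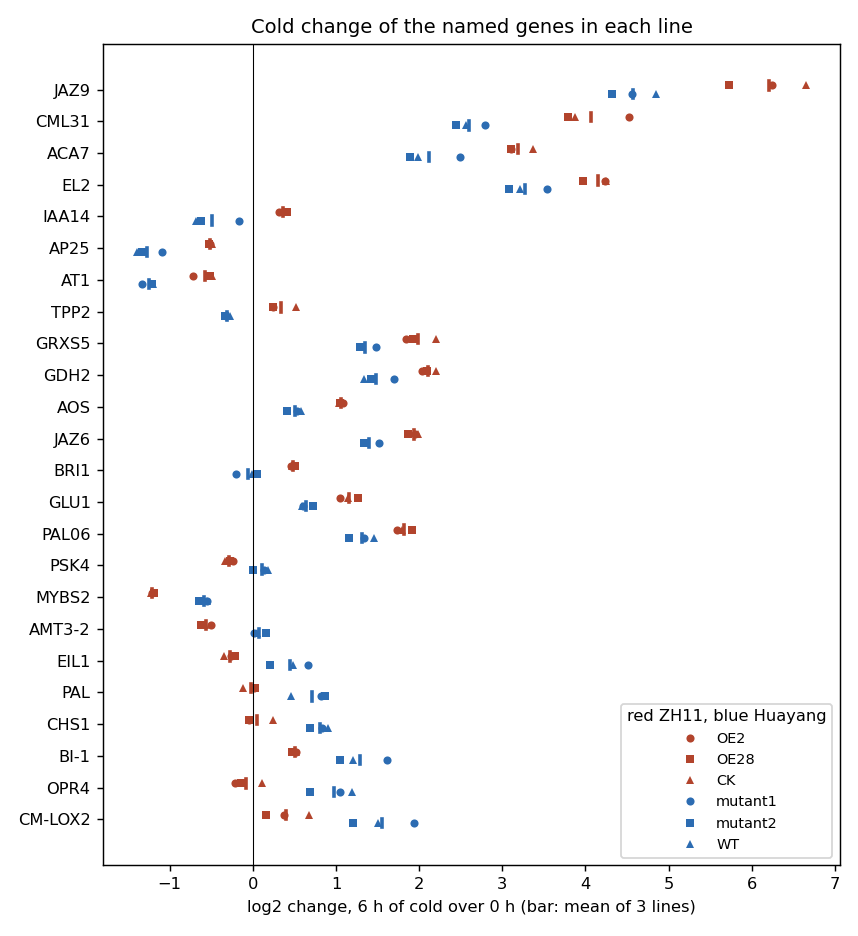
Log2 change from 0 h to 6 h of cold in each line (points) with the mean of 3 lines (bars) for the 24 called genes with a published name, ZH11 in red and Huayang in blue, ordered by the difference. JAZ9 shows the largest difference upward, 1.63, and CM-LOX2 the largest downward, -1.15.

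Enzymes of jasmonate synthesis moved in both directions. One of the genes with the synonym AOS (LOC4334233, also AOS1), an allene oxide synthase, read 163.1, 193.1 and 149.5 in OE2, OE28 and CK before cold and 321.6, 376.0 and 308.7 at 6 h. In mutant1, mutant2 and WT it read 135.7, 128.9 and 112.1, then 192.4, 162.8 and 162.5. The ZH11 lines lay above the Huayang lines at both times, and the increase was 2.08-fold against 1.42-fold (log2 difference 0.55, SE 0.09, limma adjusted p = 0.0364). The call was lost in 12 of the 19 settings, among them values as deposited (adjusted p = 0.0544), median centring (adjusted p = 0.0731) and each of the 6 fits without 1 line. The other gene with that synonym (LOC4332121, also AOS2) rose by 1.51 and 1.47 on the log2 scale and had a difference of 0.04 (SE 0.14).

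OPR4 (LOC4340486), an oxophytodienoate reductase-like enzyme, read 17.2 to 20.7 in the ZH11 lines before cold and 16.8 to 20.0 at 6 h, at the level of dim probe sets. In mutant1, mutant2 and WT it read 506.0, 405.8 and 265.0 before cold and 1029.6, 626.7 and 591.4 at 6 h. It rose 1.97-fold in Huayang, while in ZH11 every reading was in the dim range and no change can be read. The log2 difference was -1.06 (SE 0.15, limma adjusted p = 0.0193). At the floor it was -0.98 and not called (adjusted p = 0.213). A probe set of the lipoxygenase gene CM-LOX2 (LOC4345994) read at most 28.5 on every array before cold, at most 30.2 in ZH11 at 6 h and 81.0 to 127.9 in Huayang at 6 h (difference -1.15, SE 0.19, adjusted p = 0.0355). With dim readings at the floor it was -0.43, and a brighter probe set of the gene gave -0.30 (adjusted p = 0.663), so its size is not established. Of 14 jasmonate synthesis genes tested by their brightest probe set, 1 was called higher and 1 lower, with a median of -0.05, where 0.577% of all probe sets were called.

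Of 5 DREB1 regulators, 4 rose in the ZH11 lines and 5 in the Huayang lines. DREB1B had changes of 6.52, 6.25 and 6.39 in the ZH11 lines and 6.74, 6.30 and 6.96 in the Huayang lines, which overlap. CBF3 read 6150.9 to 6883.0 in the ZH11 lines at 6 h and 5052.3 to 6334.0 in the Huayang lines, and its log2 difference was -0.47 (SE 0.17, limma adjusted p = 0.372). DREB1E had a difference of 0.29 (SE 0.17, adjusted p = 0.597). Before cold CBF3 averaged 72.8 in ZH11 and 37.7 in Huayang, and DREB1E 44.5 and 56.0, in the dim range. At the floor the differences were 0.15 and 0.03, so the sign for CBF3 and both sizes are not established. Of the 5 genes 0 were called different by limma, where 0.577% of all probe sets were. An unadjusted p below 0.05 was found for 1, against 10.5% of all probe sets. The median change was 5.19 in ZH11 and 5.22 in Huayang. DREB1B falls outside the naming rule and was chosen after its values were seen.

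Of the calcium genes, CML31 and ACA7 were called higher. CML31 (LOC4325408), a calmodulin-like protein, read 185.4, 309.3 and 237.7 in OE2, OE28 and CK before cold, and 629.8, 719.4 and 978.5 in mutant1, mutant2 and WT. At 6 h it read 4251.5, 4312.8 and 3842.5 against 4349.2, 3840.1 and 5851.6. The groups were apart before cold and overlapped after it. The increase was 16.7-fold in ZH11 and 6.08-fold in Huayang (log2 difference 1.46, SE 0.18, limma adjusted p = 0.0113). ACA7 (LOC4348639), a calcium-transporting ATPase, was also lower in the ZH11 lines before cold, at 45.3 to 57.6 against 98.5 to 170.4. At 6 h it read 559.7 to 591.3 against 604.4 to 686.8, still without overlap. Its difference was 1.07 (SE 0.16, adjusted p = 0.0226), or 0.64 at the floor. Of 71 calcium sensors and kinases, 1 was called higher and 0 lower (median -0.03), where 0.577% of all probe sets were called.

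**Figure D4:**
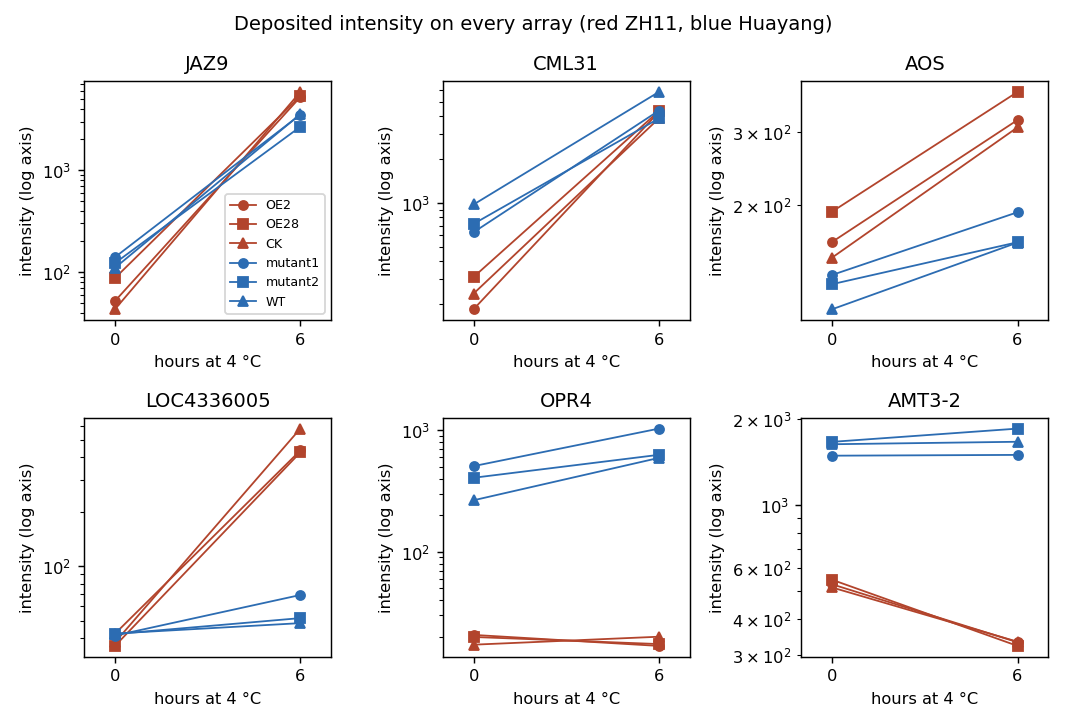
Deposited intensity (log axis) before cold and at 6 h of cold for 6 genes, 1 line per plant line, ZH11 in red and Huayang in blue. JAZ9 and CML31 start lower in ZH11, LOC4336005 rises in ZH11 to 426.9 to 578.0, and OPR4 and AMT3-2 are lower in ZH11 at both times.

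Further higher calls with a published name were single genes of several kinds. GRXS5, a glutaredoxin, rose 3.98-fold in ZH11 and 2.55-fold in Huayang (log2 difference 0.64, SE 0.10, limma adjusted p = 0.0261). A second glutaredoxin gene, GRXS3, was called at 1.02 (SE 0.13) but stayed under 73.9 on every array, so its size is not established. BRI1, the brassinosteroid receptor, had changes of 0.45, 0.51 and 0.47 in the ZH11 lines and -0.21, 0.06 and -0.01 in the Huayang lines, which did not overlap (difference 0.53, SE 0.08, adjusted p = 0.0226). GLU1, an endoglucanase of the cell wall, rose 2.22-fold and 1.56-fold (difference 0.51, SE 0.08, adjusted p = 0.0355), a call lost in 11 of the 19 settings. EL2, an elicitor-responsive cell cycle inhibitor, rose 17.8-fold and 9.69-fold (0.88, SE 0.13), and a second probe set gave 0.62 with adjusted p = 0.044.

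IAA14, an Aux/IAA repressor of auxin signalling, read 87.1 to 129.1 in ZH11 before cold and 104.4 to 159.9 at 6 h, an increase of 1.28-fold. In Huayang it read 57.9 to 66.8 and then 30.4 to 57.2, all in the dim range, so the change there and the size of the difference are not established. The log2 difference was 0.85 (SE 0.14, limma adjusted p = 0.0392), or 0.36 at the floor (adjusted p = 0.0649), and the call was lost in 13 of the 19 settings. TPP2, a trehalose-6-phosphate phosphatase, read 120.7 to 131.4 in ZH11 before cold and 132.1 to 183.9 at 6 h, but 222.8 to 263.4 and then 157.4 to 199.1 in Huayang (difference 0.65, SE 0.11, adjusted p = 0.0355), a call lost in 12 of the 19 settings. The levels were apart before cold and overlapped at 6 h. EIL1, an EIN3-like factor of ethylene signalling, fell in ZH11 (line changes -0.26, -0.22 and -0.35) and rose in Huayang (0.66, 0.21 and 0.48), a difference of -0.73 (SE 0.11, adjusted p = 0.0226). That call was lost in 10 of the 19 settings, among them line as a random block (adjusted p = 0.472). CK read 660.0 for EIL1 before cold, under the 1372.0 and 1944.6 of OE28 and OE2.

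The glutamate dehydrogenase gene GDH2 was also called higher, at 0.62 (SE 0.11), by a probe set of a kind that can bind related transcripts. Its brightest probe set gave 0.40 (limma adjusted p = 0.175) and another 0.50 (adjusted p = 0.537), neither called, and the call was lost in 15 of the 19 settings. The aspartic protease gene AP25 fell less in ZH11 than in Huayang, to 0.702 and 0.414 of its level (difference 0.76, SE 0.08, limma adjusted p = 0.00779). AT1 fell in both, with a difference of 0.68 (SE 0.11) that was -0.01 at the floor, so its size is not established. The aquaporin gene PIP2-6 (0.41, SE 0.07) and the zinc finger gene C3H33 (0.40, SE 0.06) were the remaining higher calls with a published name.

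Phenylpropanoid genes were called in both directions, and their probe sets disagreed. PAL06 encodes phenylalanine ammonia-lyase, the entry enzyme. It rose 3.51-fold in ZH11 and 2.49-fold in Huayang (log2 difference 0.50, SE 0.09, limma adjusted p = 0.0487). The call was lost in 14 of the 19 settings, among them median centring (adjusted p = 0.0537), no trend (adjusted p = 0.11) and line as a random block (adjusted p = 0.725). CK, at 375.7 and 1371.2, lay below OE2 (1326.6 and 4322.1) and OE28 (1174.1 and 4426.3) at both times while its change was alike. A probe set of the gene with the synonym PAL (LOC4330034) rose 1.64-fold in Huayang and did not pass in ZH11 (difference -0.74, SE 0.11, adjusted p = 0.0237). Its other 4 probe sets gave -0.18 to 0.10 and were not called. CHS1, a chalcone synthase of flavonoid synthesis, had -0.76 (SE 0.10, adjusted p = 0.0157) on 1 probe set and 0.00 on the brightest. Its other probe sets gave -0.95 (adjusted p = 0.136), -0.12 and 0.11 and were not called. By their brightest probe sets, 1 of 28 phenylpropanoid and lignin genes was called higher and 0 lower (median 0.02), where 0.42% and 0.157% of all probe sets were.

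Among the lower calls, BI-1, a suppressor of cell death, read 2276.8 to 2450.2 in the ZH11 lines at 6 h and 4356.3 to 6166.7 in the Huayang lines. It rose 1.42-fold and 2.45-fold (log2 difference -0.79, SE 0.12, limma adjusted p = 0.0288). AMT3-2, an ammonium transporter, read 527.9, 547.5 and 514.6 in OE2, OE28 and CK before cold and 331.2, 321.5 and 332.5 at 6 h. In mutant1, mutant2 and WT it read 1487.3, 1662.5 and 1630.8, then 1496.7, 1849.7 and 1663.7. Levels were lower in ZH11 at both times, and the gene fell there and did not pass in Huayang (difference -0.64, SE 0.07, adjusted p = 0.00825). MYBS2, a MYB factor of sugar-regulated amylase genes, fell to 0.433 of its level in ZH11 and 0.668 in Huayang (-0.63, SE 0.09), while its brightest probe set gave -0.12 (adjusted p = 0.612). PSK4, a phytosulfokine precursor, fell in ZH11 and did not pass in Huayang (-0.39, SE 0.07), a call lost in 11 of the 19 settings. Below the threshold stood PSK5, SAUR39, PHO1-3, BC1L9, CAX2 and SMAX1L, with differences of -0.53 to -0.34 and adjusted p from 0.0656 to 0.0937 in limma.

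The largest called differences belonged to genes without a published name. LOC4336005 read 36.2 to 42.4 on all 6 arrays before cold. At 6 h it read 437.4, 426.9 and 578.0 in OE2, OE28 and CK and 69.3, 51.6 and 48.4 in mutant1, mutant2 and WT, so it rose in ZH11, while every Huayang reading was in the dim range. The log2 difference was 2.92 (SE 0.17, limma adjusted p = 0.000302), or 2.51 at the floor. LOC4346931 read at most 46.1 on every array before cold, and 590.1 to 856.5 in ZH11 and 95.8 to 115.7 in Huayang at 6 h (2.44, SE 0.17, or 2.55 at the floor). LOC4335417 also read at most 46.6 before cold, and 1804.5 to 2924.8 against 733.7 to 818.2 at 6 h (2.38, SE 0.17, or 1.56 at the floor). With such dim readings before cold, the folds of these 3 genes are not established. LOC4334993 read 56.2 to 90.8 in ZH11 before cold and 61.6 to 77.6 at 6 h, but 319.9 to 350.0 and then 677.7 to 890.3 in Huayang (-1.34, SE 0.15, adjusted p = 0.00889). LOC4340672 had -1.24 (SE 0.18) and LOC4337246 -1.11 (SE 0.18), or -0.78 and -0.63 at the floor. Of the probe sets paired with no gene, the largest differences were 1.92 (SE 0.13) and -1.69 (SE 0.10), or 0.89 and -0.47 at the floor. Of the 198 called probe sets, 152 are paired with 1 gene, and 28 of them belong to 27 genes with a published name.

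The largest difference of all did not pass, and the Huayang lines were far apart. NAS1, a nicotianamine synthase of iron transport, had changes of -5.19 and -4.51 in mutant1 and mutant2 but -0.22 in WT, and 0.47, 0.51 and 0.08 in OE2, OE28 and CK. Its log2 difference was 3.66 (SE 1.02, limma adjusted p = 0.22). NAS2 had 3.50 (SE 0.87, adjusted p = 0.159) with the same order of lines. The late embryogenesis gene Emp1 had -2.83 and -2.50 in the mutants, -0.63 in WT and -0.12 to 0.36 in the ZH11 lines (2.14, SE 0.47, adjusted p = 0.106).

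Across 33 gene lists, 11 held a call. Beside those above, 1 of 7 trehalose synthesis genes, 1 of 58 auxin genes, 2 of 40 peroxide and glutathione genes, 1 of 49 expansin and cell wall genes and 1 of 22 aquaporins were called higher, where 0.42% of all probe sets were. One gene was called lower in each of the lists of 11 ethylene genes and 19 nitrogen and amino acid genes, where 0.157% of all probe sets were. The other 22 lists had 0 calls in limma among 401 genes, of which 59 (14.7%) had an unadjusted p below 0.05, against 10.5% of all probe sets. They are DREB1 regulators, clock, dehydrins and LEA, starch breakdown, starch synthesis, sugar transport and sucrose, light harvesting, photosynthesis and chlorophyll, abscisic acid, gibberellin, cytokinin response regulators, WRKY, heat shock, defence proteins, diterpenoids, phosphate and metal transport, ribosomal proteins, housekeeping and the markers of dividing cells, root, secondary wall and epidermis. Their median differences lay between -0.23 (DREB1 regulators) and 0.08 (secondary wall). The shares of 14.7% and 10.5% are not alike. List genes were read by their brightest probe set, while all probe sets include 10341 that did not exceed 73.9 on any array. The lists were also chosen with earlier results of these data known. All 7 clock genes had values below 0, with a median of -0.09, and 0 passed. Over all probe sets 47.8% of values were above 0. Other lists also leaned to 1 side, with 12.5% above 0 for diterpenoids, 33.3% for housekeeping and 90% for secondary wall.

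CK against WT, by its labels the pair without either genotype, was then compared alone. Whether the reporter readings of the WT arrays go against their label was not tested, and this comparison cannot be made without WT. It called 21 probe sets (0.0612%), 19 higher and 2 lower in CK, with the lone lines assumed to vary like the paired ones. LOC4336005 led, with changes of 3.56 in CK and 0.14 in WT (difference 3.42, limma adjusted p = 0.0342). Of the 21, 11 were also among the 198, which share these arrays. JAZ9 had 6.66 in CK and 4.85 in WT (1.81, adjusted p = 0.069), CML31 3.87 and 2.57, AOS1 1.04 and 0.57, and OPR4 0.11 and 1.19, none of them called in this pair.

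The pair can be set beside calls that did not use it. From OE2 and OE28 against mutant1 and mutant2 alone, 65 probe sets were called (0.189%), 51 higher and 14 lower. In CK minus WT, arrays this call did not use, 59 of the 65 (90.8%) had the same sign, against 53.8% of all probe sets. All probe sets had a median size of only 0.11 in the 4 lines, and 10341 were dim on every array. A set matched to the 65 in size and brightness was not tested. The same sign can go with unlike sizes, as for NAS1 (5.34 in the 4 lines, 0.30 in CK minus WT) and NAS2 (4.83 and 0.86). For 38 of the 65 CK minus WT was at least 0.5 of the 4-line difference. The median of the 65 was 0.81 in CK minus WT and 1.23 in the 4 lines that made the call. CHS1 and LOC4326746 are counted repeatedly among the 65, by different probe sets. The 65 shared 40 probe sets with the 198, which is 61.5% of the one and 20.2% of the other.

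**Figure D5:**
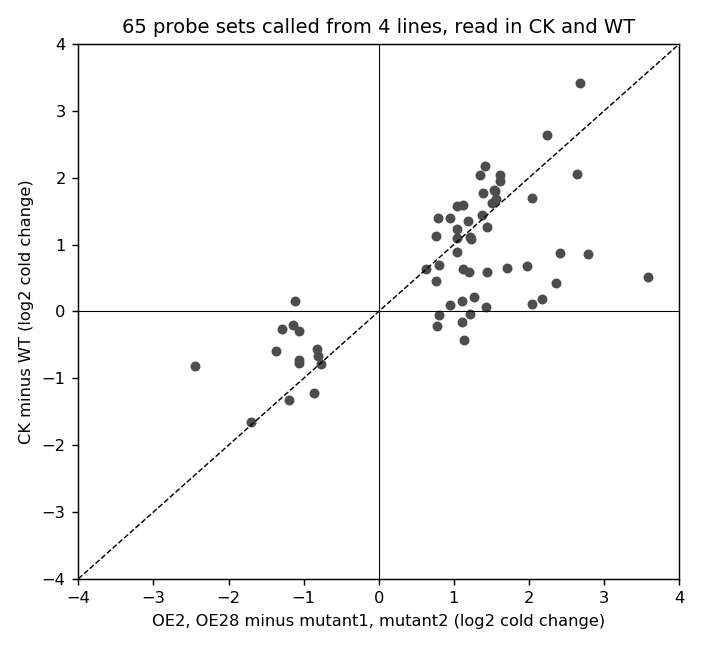
Difference of the log2 cold change in OE2 and OE28 minus mutant1 and mutant2 (horizontal axis) and in CK minus WT (vertical axis) for the 65 probe sets called from the first 4 lines; the dashed line marks equality. For 59 of the 65 both differences have the same sign. The axes end at 4, so NAS1 (5.34 and 0.30) and NAS2 (4.83 and 0.86) lie outside the plot.

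Without WT, 15 of the 32 called probe sets named here were still called, among them 8 of the 24 genes with a published name (JAZ9, CML31, AP25, JAZ6, PAL06, CHS1, PAL and AMT3-2). Over 19 alternative settings the calls of the 24 were lost in 3 (JAZ9, CML31 and AMT3-2) to 15 (GDH2), with 18 settings for CM-LOX2. Every one was lost at the planned floor, and every one except JAZ9 without line as a block. Between these ends, 4 settings lost the calls of AP25 and CHS1, 7 that of OPR4, and 8 those of JAZ6, ACA7 and EL2. The calls of GRXS5, BRI1, BI-1, PAL and MYBS2 were lost in 9. AT1 was lost in 9 and reversed in 2. Line as a random block was among the settings that lost AP25 and PAL.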

How the data were processed

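The authors deposited linear probe set intensity values for 12 GeneChip arrays, hybridised with biotin-labelled RNA per the labels' protocols. The summary and normalization method is not given in the sources used here. Of 57381 probe sets, 187 controls were left out, 22436 were paired with 1 gene, 95 with several and 34850 with none. Symbols are mostly LOC numbers, so published names come from RefSeq synonyms. The deposited intensity was taken as log2(value + 16), which understates changes of dim probe sets, quantile normalized, and kept where the mean reached the 40th percentile. R 4.3.3 and limma 3.58.1 (lmFit, eBayes with trend) were fitted with line as a fixed block (4 residual degrees of freedom; 2 for CK against WT), with Benjamini-Hochberg adjustment over 34316 probe sets. Each line was sampled at both times, which gives the pairing. A line's 2 arrays deviated together, with correlations of 0.29 to 0.67. Levels at each time were fitted without the block.

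Named are the 15 largest called genes each way that have a published name, line changes that do not overlap and a mean above 73.9, filled by unadjusted p; the 3 largest each way without such a name; and of each list the 3 largest called members or 2 as values. Members and lists were chosen with earlier results of these data known. The fits were tested on simulated data, with no outcome given here. Promoter motifs were not analysed here. Alternatives were scaling, filter, pseudocount, trend, robust, floor, block, fold minimum and lines left out. A version of the floor was added after its planned form had been seen.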

Additional observations from a re-analysis of the deposited data

Results flagged for a closer look

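The difference between cultivars was itself tested for 34316 probe sets, of which 198 passed. As given above, the sizes for AT1, IAA14 and CM-LOX2 are not established. The brightest probe sets of CM-LOX2, GDH2, PAL, CHS1 and MYBS2 were not called. The named genes whose change was higher (more positive or less negative) in ZH11 had log2 differences of 1.63 (JAZ9), 1.46 (CML31), 1.07 (ACA7), 0.88 (EL2), 0.85 (IAA14), 0.76 (AP25), 0.68 (AT1), 0.65 (TPP2), 0.64 (GRXS5), 0.62 (GDH2), 0.55 (AOS, LOC4334233), 0.53 (JAZ6), 0.53 (BRI1), 0.51 (GLU1) and 0.50 (PAL06). Those whose change was lower (less positive or more negative) in ZH11 had -1.15 (CM-LOX2), -1.06 (OPR4), -0.79 (BI-1), -0.76 (CHS1), -0.74 (PAL), -0.73 (EIL1), -0.64 (AMT3-2), -0.63 (MYBS2) and -0.39 (PSK4).

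Outside the expression comparison, a reporter probe set read 2658.5 before cold and 3821.8 at 6 h on the arrays labelled WT, above the 18.6 and 64.3 of CK and below every overexpression and mutant line. Its source was not tested.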

How the results depend on the processing

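The count of 198 stayed between 151 and 235 with other scalings, filters, pseudocounts, robust estimation or line as a random replicate block. It was 64 with a 2-fold minimum, 113 without trend, 35 with no replicate block and 65 without CK and WT. Leaving out 1 line gave 50 (without OE28) to 317 (without mutant2), with 53 without OE2 and 96 without CK. The cold response counted 7115 to 11886 calls in ZH11 and 7388 to 11032 in Huayang with 1 line left out, 968 and 1053 with a 2-fold minimum, and 6876 and 6616 with no replicate block. The planned floor, with readings under 73.9 set to 73.9, left 13 calls of the difference, 6608 and 6721 of the cold responses, and 362 for CK against WT. It makes 10341 of the tested probe sets constant, and these enter limma's estimate of the prior spread. With them left out, a setting chosen after the planned floor had been seen, the difference had 111 calls, 77 of them among the 198, and CK against WT 0. Under both, AT1 turned to -0.0056.

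CK against WT alone depended on most settings. Against 21 calls, it had 76 on values as deposited, 68 with median centring, 89 with no filter, 0 with the 60th percentile filter, 58 with a pseudocount of 1, 3 with a pseudocount of 64, 0 without trend, 81 with robust estimation and 1 with no replicate block. At unadjusted p below 0.05 these limma fits had 1740 to 3999. The cause was not tested. The difference in the number of changed probe sets, -88 at 2-fold, turned to 22 at 4-fold. With 3 lines a cultivar and 1 array a line and time, the number of arrays limits the precision, and dim readings limit the sizes.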
